A study of Mus musculus with 2 samples.

Results

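The CXCL12 axis and a set of further chemokines were followed in embryonic ureters with forced expression of Tbx2, a T-box transcription factor known mostly as a repressor. The 8 genes were chosen by name, as a ligand, its 2 receptors and 5 other chemokine ligands: Cxcl12, Cxcr4, Ackr3 (listed on the array under its older symbol Cxcr7), Cxcl14, Cxcl1, Ccl2, Ccl7 and Cx3cl1. They are 8 of 31870 genes on the array and are read by 9 of its 39429 probes. The tested ureters, called Tbx2-GOF, had the genotype Tbx18(cre/+);Hprt(Tbx2/Y), and the controls had Tbx18(+/+);Hprt(Tbx2/Y). All came from male NMRI mouse embryos at E13.5. Both genotypes therefore carried the Tbx2 allele in the Hprt locus, and only the Tbx2-GOF ureters carried cre, which sits in 1 Tbx18 allele so that Tbx2 is switched on in the Tbx18 lineage of the ureter, its mesenchyme. The genotypes thus also differ in the number of intact Tbx18 alleles, and the effect of that difference cannot be told apart from the effect of Tbx2.

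Both RNAs were hybridised together on each of 2 arrays, with the dyes exchanged: Tbx2-GOF RNA was red (AlexaFluor647) on array 1 and green (AlexaFluor555) on array 2. Nothing in the labels says whether the arrays held separate RNA extracts or how many embryos gave each. The SDs below thus measure the spread between 2 arrays, which may be technical. The 95% intervals and p-values rest mostly on variance that limma borrows across genes, with 6.36 prior degrees of freedom against 1 residual. Array and dye orientation cannot be told apart. The 2 arrays shared a slide and a scan, and their small number limits the precision of every ratio. Median spot intensities over all probes lay between 348 and 452 in the 4 channels, no spot was saturated, and 66.4% to 72.7% of probes were well above background in a channel. Of the member genes 7 passed the filter on dim probes, and Cxcl1 did not.

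Chemokines are small secreted proteins that steer cells along gradients through G protein-coupled receptors. CXCL12 signals through CXCR4, while ACKR3 binds the same ligand without classical G protein signalling and removes it from the surroundings, so that it shapes the gradient. CCL2 and CCL7 draw monocytes through CCR2, and CX3CL1, made as a membrane-anchored protein, acts on CX3CR1 of macrophages and monocytes. In embryos Cxcl12 is typically made by mesenchymal cells, and CXCR4 by endothelial and blood cells among others.

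The probes that carried the results are shown by the last 30 of their 60 bases. Capitals mark the poly(A) signal AATAAA, which is held by 10.6% of all probe ends on the array.
Cxcl12 downstream probe: tgctttcttattcttatttttaatatatga
Cxcl12 upstream probe: tatttacctgaAATAAAatctactagttgt
Ackr3 probe: ttcttcaagtttttacttggtgactttttg
Cxcr4 probe: gtaaattgAATAAAgctagccgtgatcctc
Ccl2 probe: gtgtgactcggactgtgatgccttaattaa
Ccl7 probe: cacggtcctaagggataggagctgtctgta
On the mm9 build given in the array files, the downstream Cxcl12 probe lies at chr6:117131227-117131286 on the plus strand and is assigned to the transcript variant 3 of the gene. The upstream one lies at chr6:117125026-117125085 on the same strand and is assigned to variant 1, with 6141 bases between them. The Ackr3 probe lies at chr1:92111803-92111862 and the Cxcr4 probe at chr1:130485079-130485138, on the plus and minus strands. The Ccl2 and Ccl7 probes lie at chr11:81850650-81850709 and chr11:81860656-81860715, both on the plus strand. Whether each window is coding or untranslated was not determined here.

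The ligand Cxcl12, its scavenging receptor Ackr3 and the monocyte attractant Ccl7 were lower in Tbx2-GOF ureters, while the signalling receptor Cxcr4 and the ligands Cxcl14, Ccl2 and Cx3cl1 did not pass the test. The members that passed were thus 3 of 7 tested, all of them lower. Over the 21097 genes tested, 0.64% passed, 0.28% being lower and 0.36% higher. The genes were put together with earlier results of these arrays known, so this count describes them and supports nothing beyond them. None of the 3 passed with the scanner software's processed signals, median centring, the deposited value table or a separate-channel model, though each stayed lower in all of them. The fit was limma's moderated test with Benjamini-Hochberg adjustment over all 21097 genes at a threshold of 0.05. Ratios are log2 values of Tbx2-GOF over control, and levels are normalised intensities in arbitrary units, which compare samples within a probe and not probes with each other. In whole ureters, fewer cells of a type and less RNA per cell cannot be told apart.

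Cxcl12, read by its brighter downstream probe, had intensities of 43993 and 37094 in Tbx2-GOF ureters on arrays 1 and 2, against 86327 and 74266 in control ureters. Both Tbx2-GOF values lay well below both control values. The log2 ratios were -0.97 and -1.0, with a mean of -0.99 ± 0.02 (SD, n = 2 arrays), a 1.98-fold lower level (95% interval of the log2 ratio -1.29 to -0.69, limma adjusted p = 0.0319). Among the 59 genes that fell it stood 44th by size.

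The upstream Cxcl12 probe gave 13323 and 11605 in Tbx2-GOF ureters, against 18846 and 26386 in control ureters. It was lower on both arrays as well, but by unequal amounts, with log2 ratios of -0.50 and -1.19 and a mean of -0.84 ± 0.48 (SD, n = 2 arrays). In a limma fit over all 26471 kept probes, which was added after seeing the data, this probe had an adjusted p of 0.131 and the downstream probe one of 0.0378. The 2 probes share a direction, and the test was passed by the brighter one alone.

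Ackr3, the atypical receptor that takes up CXCL12, had intensities of 23335 and 21807 in Tbx2-GOF ureters, against 40703 and 39660 in control ureters. The groups did not overlap, and each differed little between its arrays. The log2 ratios were -0.80 and -0.86, with a mean of -0.83 ± 0.04 (SD, n = 2 arrays), a 1.78-fold lower level (95% interval -1.13 to -0.53, limma adjusted p = 0.0471). This adjusted p lay close under the threshold and was 0.0578 in the fit over all kept probes.

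Cxcr4, the receptor that passes the CXCL12 signal into the cell, had intensities of 816 and 781 in Tbx2-GOF ureters, against 675 and 780 in control ureters. The Tbx2-GOF values were above the control values, but only barely so on array 2. The mean log2 ratio was 0.14 ± 0.19 (SD, n = 2 arrays), and the test was not passed (95% interval -0.18 to 0.46, limma adjusted p = 0.963). The difference between the ratios of Cxcr4 and Ackr3 was not tested.

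**Figure D1:**
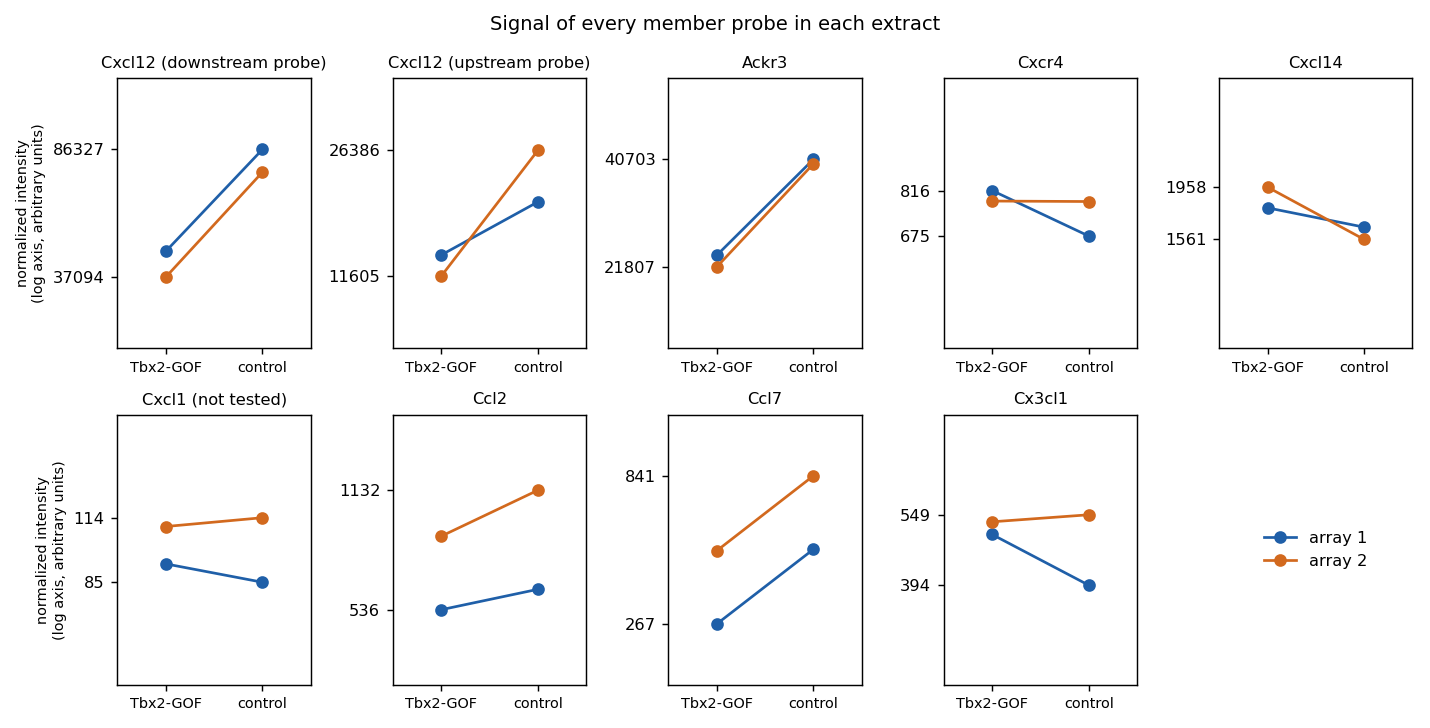
Normalised intensity (arbitrary units, log axis) of each member probe in Tbx2-GOF ureters, at the left of each panel, and in control ureters, at the right; points are single arrays and lines join the 2 channels of an array. Both Cxcl12 probes, Ackr3, Ccl2 and Ccl7 are lower at the Tbx2-GOF side on both arrays, and Cxcr4, Cxcl14, Cxcl1 and Cx3cl1 are not.

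The other CXC ligands did not pass the test. Cxcl14, a ligand abundant in epithelia and stroma, had intensities of 1790 and 1958 in Tbx2-GOF ureters, against 1646 and 1561 in control ureters. Both Tbx2-GOF values were above both control values, with a mean log2 ratio of 0.22 ± 0.15 (SD, n = 2 arrays; 95% interval -0.09 to 0.54, limma adjusted p = 0.784). Cxcl1, a neutrophil attractant acting through CXCR2, had intensities of 92.1 and 109 in Tbx2-GOF ureters, against 84.7 and 114 in control ureters. Its probe was well above background in the Tbx2-GOF channel on 1 of 2 arrays and in the control channel on neither, so Cxcl1 was not tested and no fold is given.

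Ccl7, an attractant of monocytes and their relatives, had intensities of 267 and 471 in Tbx2-GOF ureters, against 476 and 841 in control ureters. Both extracts read higher on array 2, and the Tbx2-GOF value there was just under the control value of array 1, so the groups were next to each other and separated only within each array. The log2 ratios were -0.83 and -0.84, with a mean of -0.83 ± 0.0025 (SD, n = 2 arrays), a 1.78-fold lower level (95% interval -1.13 to -0.53, limma adjusted p = 0.0471). Its adjusted p was 0.0576 in the fit over all kept probes.

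Ccl2, the neighbouring gene and the main ligand of CCR2, had intensities of 536 and 849 in Tbx2-GOF ureters, against 609 and 1132 in control ureters. The groups overlapped, and the log2 ratios were -0.18 and -0.41, with a mean of -0.30 ± 0.16 (SD, n = 2 arrays; 95% interval -0.62 to 0.02, limma adjusted p = 0.582). The array carries the Ccl2 probe in 10 spots, of which none was flagged. The scanner software's log2 ratio ranged over these spots from -0.31 to -0.14 on array 1 and from -0.56 to -0.43 on array 2. The 2 arrays thus gave separate ranges, both below 0, and the spread between arrays exceeded the spread between spots.

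Cx3cl1, the ligand of macrophage CX3CR1, had intensities of 501 and 531 in Tbx2-GOF ureters, against 394 and 549 in control ureters. The groups overlapped and the direction differed between arrays, with log2 ratios of 0.35 and -0.05 and a mean of 0.15 ± 0.28 (SD, n = 2 arrays; 95% interval -0.20 to 0.49, limma adjusted p = 0.963).

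**Figure D2:**
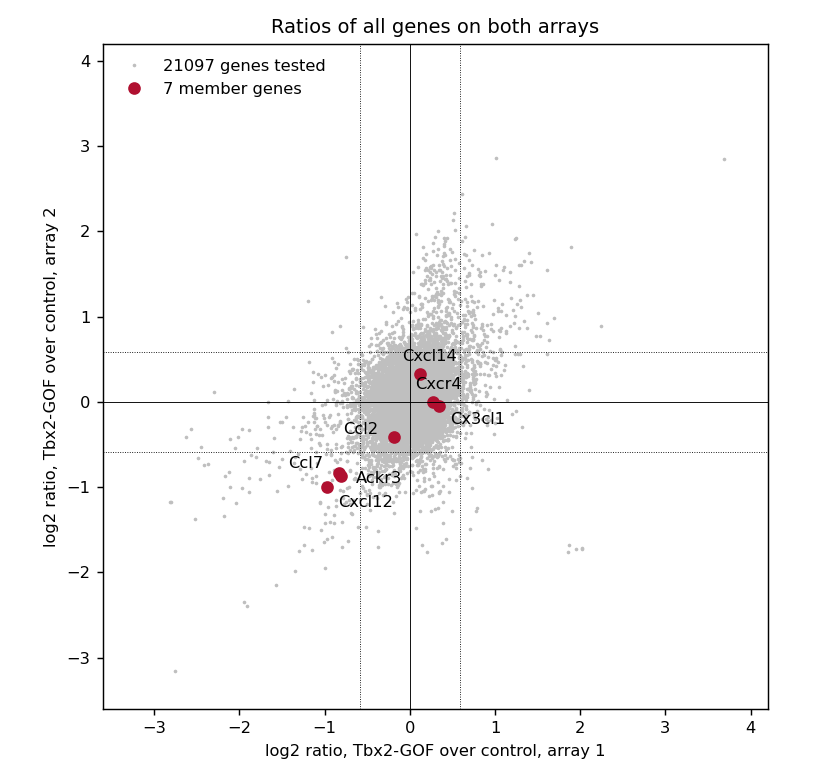
Log2 ratio of Tbx2-GOF over control on array 1 (x axis) against array 2 (y axis) for the 21097 tested genes (grey) and the 7 tested members (red, named); dotted lines mark a 1.5-fold difference. Cxcl12, Ackr3 and Ccl7 lie at the lower left with nearly equal ratios on both arrays.

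By size alone, 3 of 7 members were at least 1.5-fold lower on both arrays, against 0.545% of the 21097 genes, and none was at least 1.5-fold higher on both, against 0.825% of all genes. Without a size limit, 4 of 7 were lower on both arrays and 2 were higher on both, against 25.1% and 26.1% of all genes. Cxcl12, Ackr3 and Ccl7 were the 3 members that reached the 1.5-fold limit. As the genes were chosen with earlier results of these arrays known, these counts describe them and support nothing beyond them. The median log2 ratio of the members was -0.30, and that of all genes was -0.00052.

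Of 54 other chemokine ligands and receptors on the array 38 were tested, and 0 passed limma's test. An unadjusted p under 0.05 was found for 5 of the 38, and for 9.34% of all genes. Their log2 ratios had a median of 0.03 and reached 0.62 for Ackr4, a scavenging receptor of CC ligands that was named after its value was seen. On both arrays 11 were higher and 6 were lower, and 21 pointed in opposite ways.

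Outside the members, the tested receptors paired with CCL2, CCL7 and CX3CL1 did not pass the test. Ccr2, the receptor of CCL2 and CCL7 on monocytes, had 131 and 171 in Tbx2-GOF ureters, against 129 and 181 in control ureters, a mean log2 ratio of -0.03. Cx3cr1, the CX3CL1 receptor of macrophages, had 2793 and 2982 in Tbx2-GOF ureters, against 2245 and 2941 in control ureters, a mean log2 ratio of 0.17 (limma adjusted p = 0.922). Ccr3, which also binds CCL7, had a mean log2 ratio of 0.15. Ccr1 and Cxcr2 were not above background and were not tested.

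Further ligands and partners of the axis were read from a list of 18 tested genes, of which 0 passed limma's test and 2 had an unadjusted p under 0.05, with a median log2 ratio of 0.13. Mif, a cytokine that also binds CXCR4, had ratios of 0.23 and 0.22, and its receptor chain Cd74 had 0.24 and 0.02. Adm, encoding the vascular peptide adrenomedullin that ACKR3 also takes up, had 1302 and 1338 in Tbx2-GOF ureters, against 837 and 893 in control ureters. Its mean log2 ratio was 0.61, and it missed the test (limma adjusted p = 0.116). Adm was named after its values were seen.

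**Figure D3:**
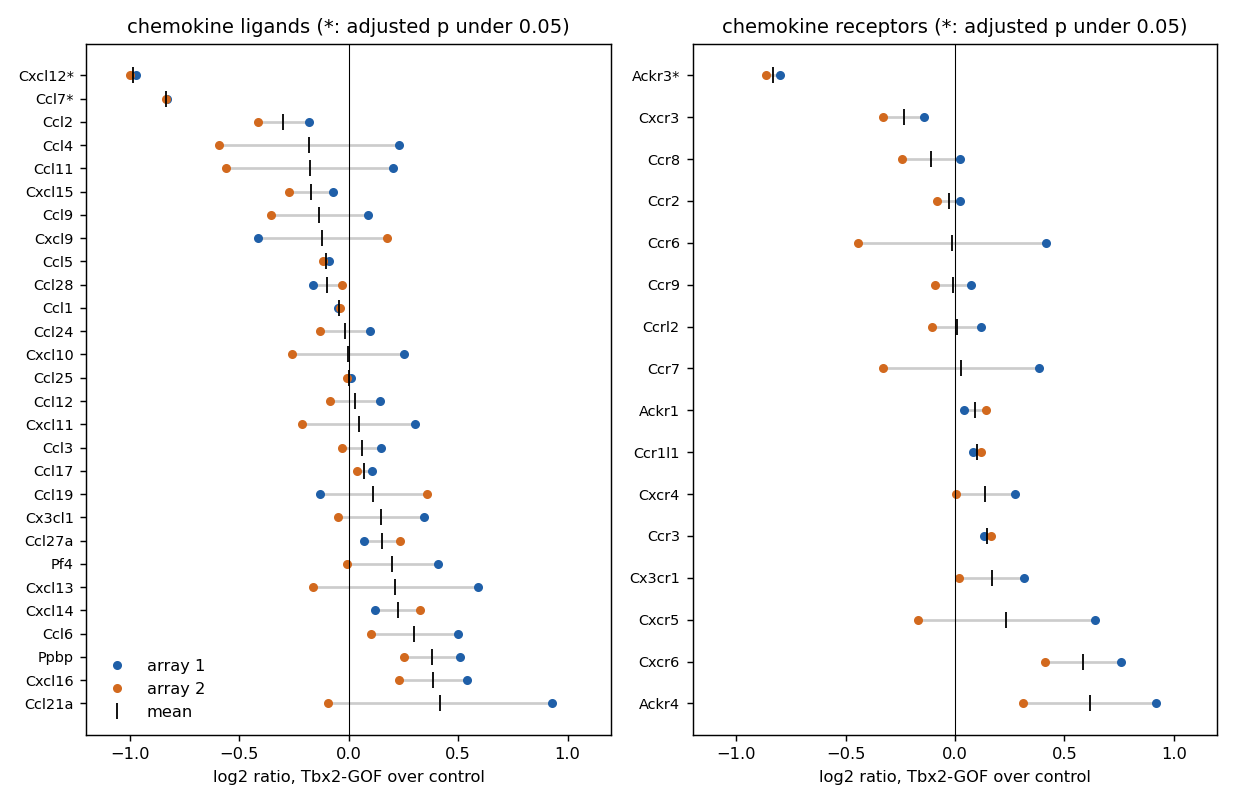
Log2 ratio of Tbx2-GOF over control for tested chemokine ligands (left) and receptors (right); points are single arrays, black ticks their mean, and asterisks mark an adjusted p under 0.05. Cxcl12, Ccl7 and Ackr3 are the genes marked, and the rest spread around 0.

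Ccl2 and Ccl7 head a run of CC ligand genes on chromosome 11, where 9946 bases part their probes. Of this run only Ccl7 passed the test. The next genes along the chromosome were named for their position after their values were seen. Ccl11 had log2 ratios of 0.20 and -0.56, Ccl12 had 0.14 and -0.09, and Ccl1 had -0.05 and -0.04. None of these next genes passed the test. Ccl1 lay near background, being well above it in the control channel on 1 of 2 arrays, and Ccl8 was not above background.

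The inducer list held 15 genes, namely inflammatory inducers and regulators, adhesion molecules, and proteases that free membrane-bound ligands. Of these 12 were tested and 1 fell, against 0.28% of all genes. The gene that fell was the adhesion molecule Vcam1, and no inducer or protease of the list passed limma's test. Vcam1, the adhesion molecule that leukocytes bind on activated endothelium and that some mesenchymal cells carry, had 5165 and 4900 in Tbx2-GOF ureters, against 9849 and 13051 in control ureters. Its mean log2 ratio was -1.17 ± 0.34 (SD, n = 2 arrays; limma adjusted p = 0.0354). The median of that list was -0.01, and Il1b, Tnf and Ptgs2 were not above background.

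Lists of markers of other cell types were read beside the members. Summed intensities add the probes of a list's tested genes, so the brightest probes weigh most and a sum does not stand for every gene. Over all 21097 genes, 0.28% fell and 0.36% rose by limma's test, and 9.34% had an unadjusted p under 0.05. The macrophage and leukocyte list had 0 of 14 tested genes past limma's test and 0 with an unadjusted p under 0.05, with summed intensities of 57766 and 69308 in Tbx2-GOF ureters, against 48182 and 72835 in control ureters. Adgre1, Csf1r and Ptprc, which define macrophages and leukocytes, had mean log2 ratios of 0.24, 0.20 and 0.14. On arrays 1 and 2 the ratios were 0.66 and -0.17 for Adgre1, 0.38 and 0.02 for Csf1r, and 0.19 and 0.09 for Ptprc. Of the 14 genes 8 pointed in opposite ways on the arrays, 6 were higher on both and 0 lower on both. Beside the lower Ccl7, whose product draws such cells, the macrophage sum was higher on array 1 and lower on array 2 in Tbx2-GOF ureters.

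The endothelial list, whose cells carry CXCR4, had 0 of 14 genes past limma's test, 4 with an unadjusted p under 0.05, and sums of 119741 and 124462 in Tbx2-GOF ureters, against 94390 and 104668 in control ureters. Both Tbx2-GOF sums lay above both control sums. On both arrays 12 of the 14 genes were higher, against 26.1% of all genes, and 0 were lower, against 25.1%. The median log2 ratio of the list was 0.26. Pecam1 and Cdh5, which define endothelium, had mean log2 ratios of 0.14 and 0.29. The ureteric mesenchyme list had 0 of 12 past limma's test, 2 with an unadjusted p under 0.05, and sums of 380666 and 395569 in Tbx2-GOF ureters, against 389017 and 326778 in control ureters. Of the whole mesenchyme and macrophage lists, Myocd and Fcgr1 were not above background. The fibroblast and adventitia list had 2 of 12 genes that fell, Lum and Postn, and 6 with an unadjusted p under 0.05 in either direction. Meox2, 1 of these 6 and named after its values were seen, was higher, with log2 ratios of 1.01 and 0.43 (limma adjusted p = 0.145). On both arrays 6 of the 12 were lower and 1 was higher, and 5 pointed in opposite ways. The sums were 662171 and 586064 in Tbx2-GOF ureters, against 707937 and 815110 in control ureters. Both Tbx2-GOF sums of this list lay below both control sums, with its brightest probes weighing most. The part of these cells in the lower Cxcl12, Ackr3 and Ccl7 was not tested.

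The lists for skeletal muscle, liver and neural cells had medians farther from 0, at -1.22, -1.11 and 1.10. The nephron and stromal progenitor list had a median of 0.69, and the urothelium list had one of 0.04. The counts below stand beside 0.28% of all genes that fell, 0.36% that rose and 9.34% with an unadjusted p under 0.05. The skeletal muscle list had 4 of 10 genes that fell, Myh8, Acta1, Chrna1 and Tnnt3, and all 10 had an unadjusted p under 0.05, with sums of 9966 and 22925 in Tbx2-GOF ureters, against 34239 and 38679 in control ureters. The liver and plasma protein list had 5 of 9 that fell, Afp, Alb, Ahsg, Ttr and Serpina1a, and 8 with an unadjusted p under 0.05, with sums of 6147 and 6324 in Tbx2-GOF ureters, against 8879 and 11480 in control ureters. The neural and Schwann list had 2 of 10 that rose, Th and Fabp7, and 9 with an unadjusted p under 0.05, with sums of 102242 and 106316 in Tbx2-GOF ureters, against 63894 and 38793 in control ureters. The nephron and stromal progenitor list had 3 of 10 that rose, Six2, Pax8 and Wnt4, 1 that fell, Foxd1, and 7 with an unadjusted p under 0.05. The urothelium list had 1 of 15 that fell, Upk3a, and 4 with an unadjusted p under 0.05 in either direction. Upk2 of this list, named after its values were seen, was higher, with log2 ratios of 1.05 and 0.62 (limma adjusted p = 0.0715). On both arrays 4 of the 15 were lower and 5 were higher, and 6 pointed in opposite ways. The part of the cells of these lists in the member genes was not tested.

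**Figure D4:**
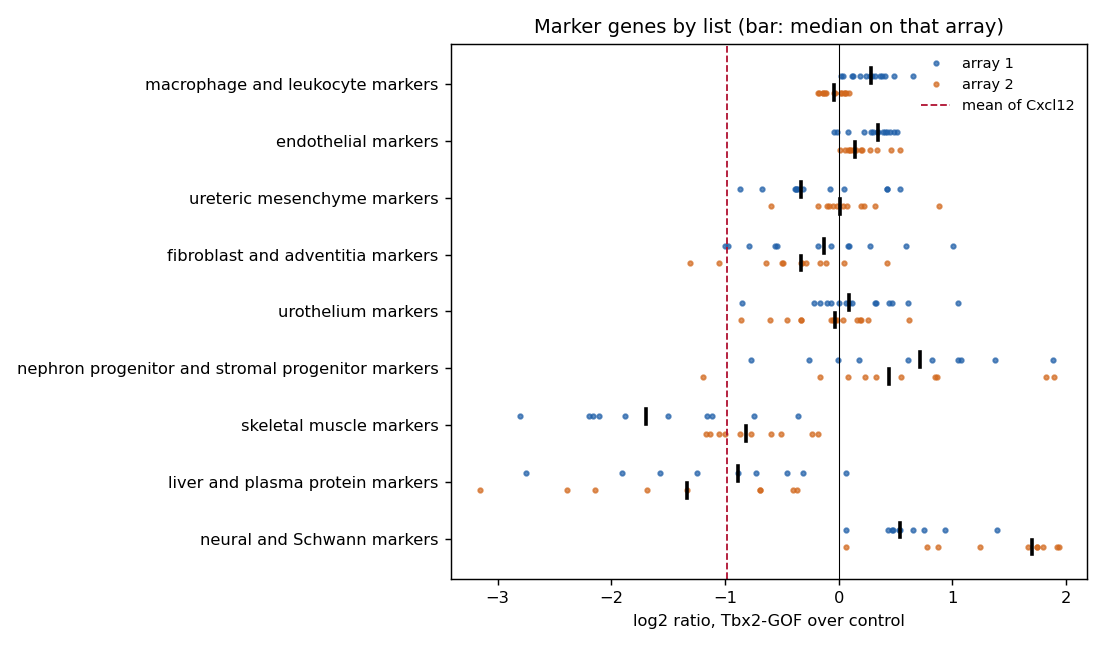
Log2 ratios of Tbx2-GOF over control for the tested genes of each marker list; points are single genes on 1 array, black bars the list's median on that array, and the dashed line the mean of Cxcl12. The skeletal muscle and liver lists lie mostly below 0 and the neural list mostly above, while macrophage and endothelial markers lie near 0 or slightly above.

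The loci altered by the design were read as well. Tbx2 had log2 ratios of 0.04 and 0.56, with a mean of 0.30 (limma adjusted p = 0.711), and Tbx18 had -0.31 and -0.59, with a mean of -0.45 (limma adjusted p = 0.266). Neither passed the test, so the arrays do not check the labels of the lower Cxcl12, Ackr3 and Ccl7. Whether the Tbx2 probe reads the transcript of the Hprt allele was not tested.

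Among tested genes with a RefSeq symbol, the nearest to Cxcl12 by Euclidean distance of both ratios were Lhx9, Ambp, Akr1c14, Ebf3 and Niban1. Their distances were 0.109 to 0.182. Lhx9 and Ebf3 encode transcription factors, and Ambp is a plasma protein precursor made in liver. The Lhx9 probe was well above background in the Tbx2-GOF channel on 1 of 2 arrays.

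The promoters of 2 members that fell, the ligand gene Cxcl12 and its receptor gene Ackr3, are shown as RefSeq gives them. They run from 250 bases before to 50 after the annotated start on the build GRCm38.p6. This build differs from that of the probes. They lie at chr6:117168285-117168584 and chr1:90203730-90204029, both on the plus strand, and capitals mark the letters TATAAA.
Cxcl12 promoter: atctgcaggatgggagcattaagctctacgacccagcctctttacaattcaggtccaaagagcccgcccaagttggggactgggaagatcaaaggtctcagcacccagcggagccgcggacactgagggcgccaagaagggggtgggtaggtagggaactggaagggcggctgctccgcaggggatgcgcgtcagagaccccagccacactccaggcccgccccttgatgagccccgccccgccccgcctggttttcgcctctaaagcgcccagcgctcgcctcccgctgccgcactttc
Ackr3 promoter: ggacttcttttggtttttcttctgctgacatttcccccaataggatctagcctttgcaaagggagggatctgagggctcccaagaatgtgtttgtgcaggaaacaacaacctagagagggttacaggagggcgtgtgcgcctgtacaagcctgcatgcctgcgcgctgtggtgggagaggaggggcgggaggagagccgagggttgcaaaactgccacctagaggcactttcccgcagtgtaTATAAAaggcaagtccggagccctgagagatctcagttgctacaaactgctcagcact
The T-box core GGTGTG was sought on both strands and is in neither window, while 19.0% of 32851 promoters of the same length hold it. The longer T-box motif AGGTGTGA, which contains that core, is held by 1.28% of them. TATAAA, the letters of a TATA box, is in the Ackr3 window and not in that of Cxcl12, and in 13.6% of all. In the Ackr3 window it begins at position -8 from the annotated start, and whether it works as a TATA box was not tested. These letters describe the windows and say nothing of binding elsewhere. Promoters were at hand for 6 of the 8 members, Ccl2 and Ccl7 being the others. Of the windows not shown, that of Cxcl14 holds GGTGTG, and those of Cxcr4 and Cx3cl1 hold TATAAA.

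Under 11 alternative ways of processing the arrays, Cxcl12 passed the test in 7, Ackr3 in 6 and Ccl7 in 5, with mean ratios of -1.02 to -0.91, -0.87 to -0.83 and -1.01 to -0.79.

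**Figure D5:**
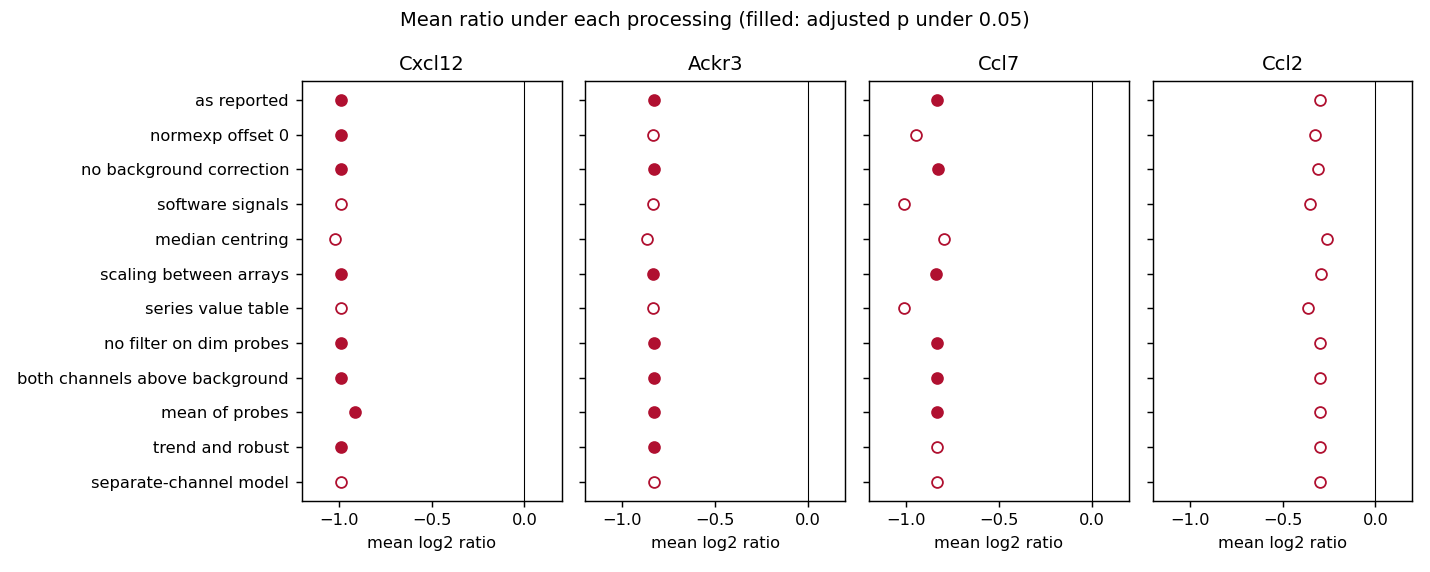
Log2 ratio of Tbx2-GOF over control for Cxcl12, Ackr3, Ccl7 and Ccl2 as reported and under each alternative processing; filled points have an adjusted p under 0.05. All 4 genes stay below 0 in the settings shown, while the adjusted p of Cxcl12, Ackr3 and Ccl7 misses the threshold in several and that of Ccl2 in all.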

How the data were processed

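RNA of Tbx2-GOF and control ureters was measured on 2 Agilent two-colour arrays with exchanged dyes. The deposited scanner files hold spot intensity values (mean and background per channel) and a log10 ratio, both written by Feature Extraction 10.7.3.1 (Agilent), per the file headers. The deposited value table holds a score per probe, a signed linear fold of Tbx2-GOF over control: 99.6% of 25333 probes lay within 0.01 log10 of the software's ratio, its median is 1 in both columns, and the origin of its values of exactly 1 (31.5% and 31.1%) is unknown. It served as an alternative.

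From the intensities, limma 3.58.1 in R 4.3.3 applied normexp (offset 50) and loess (span 0.3), with 1377 control spots and 209 and 391 flagged spots given weight 0. Ratios were turned to Tbx2-GOF over control by the dye labels, and spots of a probe were averaged. A probe was kept if the Tbx2-GOF or the control channel exceeded background on each array by the software's test (26471 probes), and the brightest kept probe stood for a gene. Levels in a channel used Aquantile scaling. RefSeq symbols were found for 67.0% of probes (26412). lmFit and eBayes gave 135 genes past an adjusted p of 0.05, 76 higher and 59 lower. The script was tested on simulated data. Named genes were the members, genes of the chemokine, partner and inducer lists past the test or at least 1.5-fold on both arrays, receptors or ligands of a member, marker genes past the test, 5 defining markers, Tbx2, Tbx18 and the 5 genes nearest to Cxcl12. Ackr4, Adm, Ccl1, Ccl8, Ccl11, Ccl12, Meox2, Upk2 and the marker or inducer genes named as not above background fall outside this rule. Members, gene lists and tests were chosen with earlier results of these data known. Alternatives covered background correction, normalisation, filters, probe rule and variance model. The values of 1 receptor are counted in the list but not reported here.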

Additional observations from a re-analysis of the deposited data

How the results depend on the processing

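With 2 arrays and 1 residual degree of freedom, calls rest on the variance borrowed across genes. Cxcl12 ranged from -1.02 to -0.91 over 11 planned settings and was called in 7 (adjusted p 0.0104 to 0.505). Ackr3 ranged from -0.87 to -0.83, called in 6 (0.0178 to 0.501), and Ccl7 from -1.01 to -0.79, called in 5 (0.0178 to 0.519). Ccl2, Cxcr4, Cxcl14 and Cx3cl1 were called in none of them, and no ratio of a member changed sign over the 11. The genes past the test, 135 in the main setting, numbered 0 with processed signals, 0 with median centring, 0 with the value table, 4 with separate channels, 211 with the mean of probes, 276 without the dim filter and 313 with scaling between arrays. At an unadjusted p under 0.05 the settings with 0 held 2055, 1219 and 2060 genes. The member count of 3, which is also the count of the whole chemokine family, was 2 with trend and robust estimation (Ccl7 lost, adjusted p = 0.0562), 1 with offset 0, 1 in the added fit over all probes and 0 with processed signals, median centring, the value table and separate channels. The cause was not tested. Genes at least 1.5-fold in 1 direction on both arrays, 289 in the main setting, numbered 544 with processed signals and 474 with the value table. Leaving out an array leaves the ratio of the other, with no test; Cx3cl1 alone then changes sign. The test was thus paired within arrays, as each ratio already pairs both RNAs of 1 array, and no further pairing was possible.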
